A study of Mus musculus with 4 samples.

Results

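The mRNAs of the NMDA receptor subunits were followed in RNA bound by the small-subunit ribosomal protein RPS2 and in total RNA of cultured mouse cortical neurons. The 7 members, Grin1, Grin2a, Grin2b, Grin2c, Grin2d, Grin3a and Grin3b, were found by matching the Ensembl identifiers of the count tables to GENCODE M21 symbols. All 7 were present among the 31053 genes counted. The cells were primary cortical neurons of wild-type mice. The study's methods give late embryonic C57BL/6J cortices as their source and floxuridine as the agent added against dividing cells. In enhanced crosslinking and immunoprecipitation (eCLIP), RNA is crosslinked to protein in the cell, trimmed with RNase I and pulled down with an antibody, here one against endogenous RPS2. The series holds 2 RPS2 IP libraries and, from the same samples ahead of the pulldown, 2 libraries of total RNA. Depletion of rRNA is a label of the IP libraries alone, and the methods describe it as a step after library preparation without naming the libraries, so any effect of it cannot be told apart from the IP. The sources do not say whether replicates 1 and 2 came from separate cultures or animals, so p-values measure only the spread between these libraries, which may be technical.

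NMDA receptors are glutamate-gated cation channels that let calcium into the postsynaptic neuron and open only when glutamate and a co-agonist, glycine or D-serine, are both bound and the magnesium block of the pore is lifted by depolarisation. A receptor is a tetramer that needs the GluN1 subunit, made from Grin1, together with GluN2 subunits (Grin2a to Grin2d), which bind glutamate, or GluN3 subunits (Grin3a, Grin3b), which bind glycine. In rodent forebrain Grin2b and Grin2d are expressed before birth and Grin2a increases after it, while Grin2c is known mainly from cerebellar granule cells.

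The subunit genes are paralogs, so their most alike coding stretch in the annotation is shown first. The window shown is the 30-base stretch of the coding sequences in which the 7 genes are most alike. It begins at codon 668 in Grin1, 645 in Grin2a, 646 in Grin2b, 643 in Grin2c, 760 in Grin3a and 660 in Grin3b. Each line gives the window, for 6 of the genes, from GENCODE M21 transcripts, 5′ to 3′ on the mRNA, with its mm10 position and strand, and capitals mark bases that differ from Grin2b.
Grin1, chr2:25297193-25297222, minus strand: tacactgccaacCtGgcAgccttcCtgGtG
Grin2a, chr16:9653441-9653470, minus strand: tacacAgccaacCtGgcTgccttcatgatc
Grin2b, chr6:135772238-135772267, minus strand: tacactgccaacttagccgccttcatgatc
Grin2c, chr11:115253743-115253772, minus strand: tacacGgccaaTCtGgcAgccttcatgatc
Grin3a, chr4:49770464-49770493, minus strand: tacacAgcGaacttGgcTgcTGtcatgGtA
Grin3b, chr10:79974639-79974668, plus strand: tacacAgccaacCtGgcAgcTGtcatgGtc

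Even here the genes shown differed from Grin2b at 4 bases (Grin2a) to 8 bases (Grin3a). Grin2c differed at 5 bases, Grin1 at 6 and Grin3b at 7. The longest run of identical bases between the annotated transcripts of any pair of members was 34 bases, between Grin2b and Grin2c, followed by 32 bases between Grin2c and Grin2d and 28 bases between Grin2a and Grin2d. A read longer than these runs cannot match both genes of a pair exactly. Shared sequence with genes outside the family was larger for Grin2a, where 12.2% of all 30-base windows also occurred in a transcript of another gene, against at most 0.323% (Grin1) in the other members and 0% in Grin3a and Grin3b. The authors' counting left out reads that aligned to several loci, so the level of Grin2a may be understated by a part that was not measured here.

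The genes also differ in how much of their mRNA is translated. The longest coding transcript of Grin2b had 24060 bases, of which 4446 (18.5%) were coding and 19614 were not. That of Grin2a had 14634 bases with 4392 coding (30%). In Grin1 2877 of 4276 bases (67.3%) were coding, in Grin2d 3969 of 5431 (73.1%), in Grin2c 3717 of 4895 (75.9%), in Grin3a 3405 of 7491 (45.5%) and in Grin3b 3009 of 3283 (91.7%). GC content over the annotated transcripts ran from 47.0% in Grin3a and 47.3% in Grin2b, through 49.6% in Grin2a and 58.4% in Grin1, to 61.6% in Grin2c, 62.3% in Grin3b and 65.6% in Grin2d, around a median of 50.5% for the genes tested. GC content and length are given because fold changes in these libraries were correlated with both (below). The coding share was not set against fold changes.

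Libraries held 16460545 and 9941486 counts in IP replicates 1 and 2, and 5281196 and 4899718 in total RNA. One gene annotated as a lincRNA, Gm42418, took 15.3% to 42.6% of the counts of each library, with the larger share in replicate 1 of both groups. Levels are therefore given as CPM, the counts scaled to the effective library size found by edgeR's TMM method, and levels of different genes are compared per kilobase of exonic length. Neuronal markers were abundant: summed over 6 genes (Map2, Tubb3, Rbfox3, Syn1, Snap25, Nefl) they stood at 3098 and 3253 CPM in the IP and 3027 and 3874 CPM in total RNA. Both excitatory (925 to 985 CPM over 5 genes) and inhibitory markers (1049 to 1181 CPM over 3 genes) were present. Astrocyte markers, summed over 6 genes, were not absent either, at 3383 and 1373 CPM in the IP and 2754 and 1229 CPM in total RNA. They were more than 2 times as high in replicate 1 of both groups. Microglial markers (5 genes) likewise stood at 27.3 and 4.58 CPM in the IP and 27.6 and 3.12 CPM in total RNA. Oligodendrocyte lineage markers (6 genes) ranged from 57.2 to 67.4 CPM, and endothelial markers (3 genes) from 0.719 to 1.64 CPM with Cldn5 at 0 in every library. In such bulk samples fewer cells of a type and less RNA per cell cannot be told apart.

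Grin1, the obligatory subunit, was by far the most abundant member (ENSMUSG00000026959, chromosome 2, 25291181 to 25319187 in mm10). It had 6154 and 9102 counts in total RNA replicates 1 and 2, and 19589 and 15540 in the IP. Per kilobase this was 141 and 154 CPM in total RNA and 146 and 144 CPM in the IP, so the 4 libraries lay close together and the groups overlapped. Its mean of 147.8 ± 9.17 CPM per kilobase in total RNA (SD, n = 2) was above that of 99.1% of the genes tested.

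Grin2b, which encodes a glutamate-binding subunit with slow channel closing, was second (ENSMUSG00000030209, chromosome 6, 135713233 to 136173511). It had 3054 and 3957 counts in total RNA and 8623 and 6662 in the IP, that is 27.4 and 26.2 CPM per kilobase in total RNA and 25.1 and 24.1 CPM per kilobase in the IP. Its mean of 26.8 ± 0.843 in total RNA exceeded that of 90.7% of genes. Both IP libraries were slightly below both total RNA libraries.

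Grin2a, whose product forms faster receptors, ranked after Grin2b by its mean (ENSMUSG00000059003, chromosome 16, 9567898 to 9995560). Its 1236 and 1169 counts in total RNA gave 15.4 and 10.7 CPM per kilobase, and its 3533 and 2312 counts in the IP gave 14.2 and 11.6. Grin2d, a GluN2 subunit known for very slow deactivation and for expression in interneurons, followed (ENSMUSG00000002771, chromosome 7, 45831883 to 45878378). It had 423 and 247 counts in total RNA, or 14.2 and 6.10 CPM per kilobase, and 843 and 398 counts in the IP, or 9.15 and 5.37. The means in total RNA, 13.0 ± 3.28 for Grin2a and 10.1 ± 5.69 for Grin2d, lay within each other's spread between replicates. Within each library Grin2a was the higher, by a ratio of 1.08 and 1.76 in total RNA and 1.56 and 2.16 in the IP. The margin was narrow in total RNA replicate 1. For both genes replicate 1 was higher than replicate 2 in either group.

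The other members were low. Grin3a, the glycine-binding GluN3A subunit of early postnatal synapses, had 88 and 83 counts in total RNA and 291 and 146 in the IP (ENSMUSG00000039579, chromosome 4, 49661611 to 49845744). Its level per kilobase was 1.60 and 1.11 CPM in total RNA against 1.71 and 1.07 in the IP, below the 4 members described so far, and the groups overlapped. Grin2c had 11 counts in each total RNA library and 31 and 10 in the IP (ENSMUSG00000020734, chromosome 11, 115249169 to 115267243), or 0.486 and 0.359 CPM per kilobase in total RNA and 0.445 and 0.178 in the IP. Grin3b had 6 and 3 counts in total RNA and 15 and 3 in the IP (ENSMUSG00000035745, chromosome 10, 79970715 to 79977190). In replicate 2 of both groups it thus stood at 3 counts, the number taken as the detection floor, and no fold is given for it. The ranges of Grin2c and Grin3b per kilobase overlapped.

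**Figure D1:**
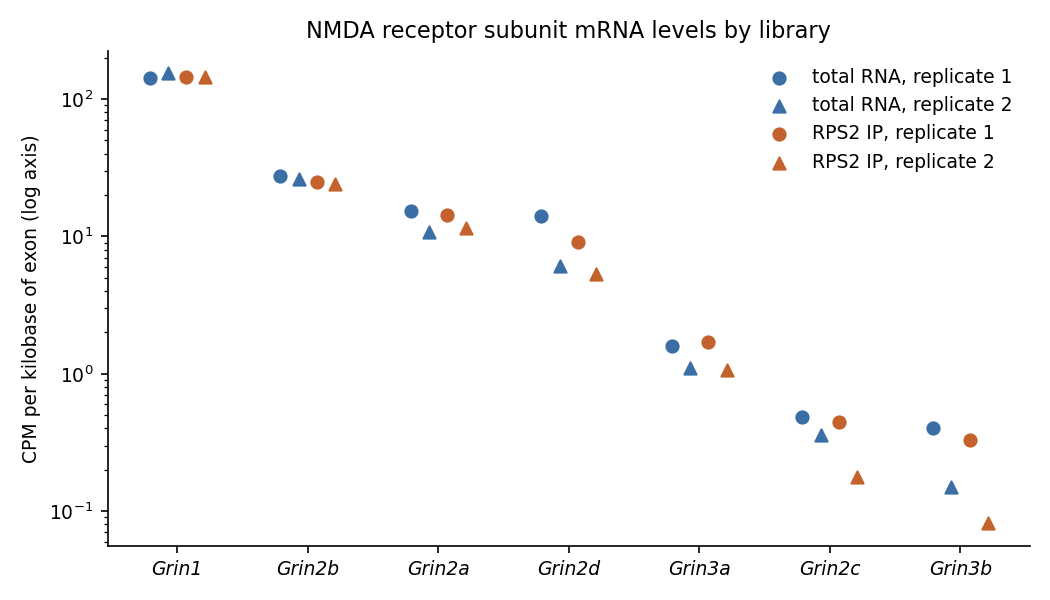
Level of each NMDA receptor subunit mRNA in every library, in CPM per kilobase of exon on a log axis, with blue for total RNA, orange for RPS2 IP, circles for replicate 1 and triangles for replicate 2. Grin1 sits near 147.8, Grin2b near 26.8, Grin2a and Grin2d share a range, and Grin2c and Grin3b lie at the bottom.

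The subunit composition was read from counts per kilobase as a share of the sum over all 7 members. In total RNA Grin1 made up 70.4% and 77.6% in replicates 1 and 2, Grin2b 13.6% and 13.2%, Grin2a 7.65% and 5.39%, and Grin2d 7.05% and 3.07%. Grin3a followed with 0.796% and 0.559%, Grin2c with 0.242% and 0.181%, and Grin3b with 0.202% and 0.0752%. The share of Grin2b was thus the steadiest of the 4 largest, with a mean of 13.4 ± 0.338% (SD, n = 2), and that of Grin2d moved most relative to its mean of 5.06 ± 2.82%. In the IP the means were 75.7 ± 2.22% for Grin1, 12.8 ± 0.136% for Grin2b, 6.72 ± 0.717% for Grin2a and 3.76 ± 1.25% for Grin2d. Only Grin2b had both IP shares (12.7% and 12.9%) below both total RNA shares. The shares depend on the length used: with the longest coding transcript as length, Grin1 rose to 85.0% and Grin2b fell to 7.02% of the total RNA sum, and with raw counts Grin1 stood at 59.3% and Grin2b at 27.5%. The order Grin1, Grin2b, Grin2a, Grin2d by mean share was the same under each of these lengths.

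**Figure D2:**
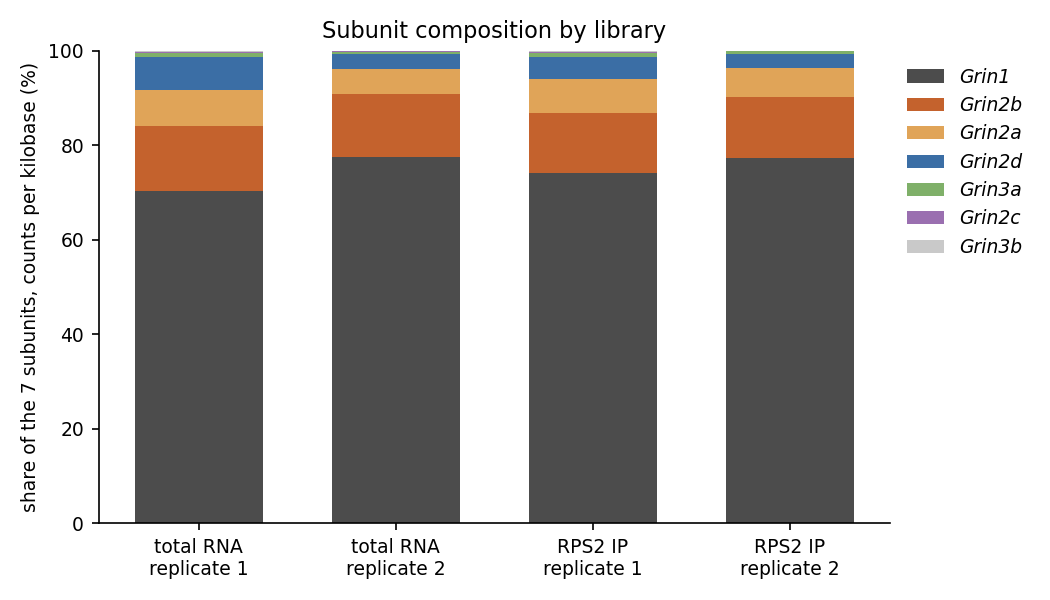
Stacked shares (percent) of the 7 subunit mRNAs in each library, from counts per kilobase of exon. Grin1 fills 70.4% to 77.6% of every bar, and the blue Grin2d band is widest in total RNA replicate 1, at 7.05%.

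Among the GluN2 mRNAs alone, Grin2b held 47.7% and 60.4% of counts per kilobase in total RNA and 51.3% and 58.4% in the IP. Grin2a held 26.8% and 24.7% in total RNA against 29.1% and 28.1% in the IP. Grin2d held 24.7% and 14.1% in total RNA against 18.7% and 13.0% in the IP, and Grin2c never more than 0.909%. As counts, without length, Grin2d was 8.95% of GluN2 reads in total RNA replicate 1 (95% Wilson interval 8.17 to 9.80) and 6.47% in the IP of the same number (6.06 to 6.91). In replicate 2 the values were 4.59% (4.06 to 5.18) and 4.24% (3.85 to 4.67). The intervals of the first pair do not meet and those of the second do. They cover counting error only, since PCR duplicates were not named as removed. Grin1 stood above the sum of the GluN2 mRNAs by a ratio of 2.46 and 3.56 in total RNA and 2.98 and 3.49 in the IP. With the longest coding transcript as length the ratio was 4.94 and 7.29 in total RNA and 6.02 and 7.12 in the IP.

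The balance of Grin2b to Grin2a is of interest because Grin2a increases relative to Grin2b as cortex matures. Per kilobase Grin2b exceeded Grin2a by a ratio of 1.78 and 2.44 in total RNA and 1.76 and 2.08 in the IP. On the scale of log2 CPM, in which length cancels between libraries, the difference between the genes was 1.30 and 1.76 in total RNA and 1.29 and 1.53 in the IP. IP minus total RNA was −0.12, with −0.017 in pair 1 and −0.23 in pair 2. An exact permutation test over the 4 libraries (two-sided) gave p = 0.667, where the smallest p this design allows is 0.333. The test takes the libraries as unpaired and could not have passed the threshold, so nothing is read from its p, and both pairs lay below 0.

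Whether the subunit mRNAs were recovered with RPS2 in proportion to their level in total RNA was asked gene by gene, as IP over total RNA. The study used this ratio as its eCLIP measure of translation. Grin1, Grin2b and Grin2a, the most abundant subunits, were not called in either the unpaired or the paired fit, with differences of at most 0.13 on the log2 scale in any pair. Grin2d was lower in the IP by a log2 ratio of −0.43 ± 0.12 when IP and total RNA of the same number were compared (2 pairs). This SE rests on the dispersion trend over all genes, not on the spread of the Grin2d pairs. Fitting GC content and length changed this picture, ending the call on Grin2d and adding one on Grin1. With no pairing of the libraries, edgeR's quasi-likelihood test called 0 of the 6 subunits that passed the low-count filter, at a background of 0% of the 12336 genes tested. None of the 6 had an unadjusted p under 0.05 and DESeq2 called 0. Grin3b was not tested because of its low counts. In that fit the smallest unadjusted p of a member was 0.359 (Grin2d). At an unadjusted p under 0.05 the fit held 349 genes in all, and DESeq2 called 0 genes higher and 5 lower.

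Libraries with the same number deviated together, and the methods take total RNA from the samples ahead of the pulldown. That equal numbers mark the same sample is assumed, not stated. The fit with the replicate number as a block is therefore given beside the unpaired one. Grin1 had 1370 and 1496 CPM in total RNA and 1416 and 1396 CPM in the IP, with log2 IP over total RNA of 0.047 in pair 1 and −0.10 in pair 2. The blocked estimate was −0.027 ± 0.10 (SE; 95% interval −0.23 to 0.18; adjusted p = 0.911, edgeR). Grin2a had 275 and 192 CPM in total RNA and 255 and 208 CPM in the IP, with −0.11 and 0.11 in the pairs. Its blocked estimate was 0.00085 ± 0.099 (−0.19 to 0.19; edgeR adjusted p = 0.999). For these genes the pairs pointed in opposite directions and the groups overlapped.

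Grin2b had 680.0 and 650.4 CPM in total RNA and 623 and 598 CPM in the IP, and was the one member whose IP libraries both lay below both total RNA libraries, a pattern that 14.9% of all genes tested showed (both above: 16.9%). The pairs gave −0.13 and −0.12, and the blocked estimate was −0.12 ± 0.099 (−0.32 to 0.071; edgeR adjusted p = 0.464). The interval leaves room for a change of up to −0.32, so a small deficit in the IP was not detectable with these libraries.

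Grin2d had 94.2 and 40.6 CPM in total RNA and 60.9 and 35.8 CPM in the IP. The IP was below total RNA in both pairs, but the spread between replicates exceeded the difference and the groups overlapped. The pairs gave −0.63 and −0.18. Without the block the estimate was −0.47 ± 0.47 (−1.67 to 0.72; edgeR adjusted p = 1). With the block it was −0.43 ± 0.12 (−0.66 to −0.20), a ratio of 0.744 of IP to total RNA (edgeR adjusted p = 0.00455). Grin2d was thus 1 of 6 subunits called lower, against 7.55% of all genes called lower and 6.63% called higher in the blocked fit, and 0 subunits were called higher. The blocked error and interval for Grin2d come from the dispersion trend over all genes, not from its own pairs. Pair 2 (−0.18) lay outside that interval. The blocked call is sensitive to the tool: DESeq2 with the block gave the same estimate, −0.43, with an adjusted p of 0.148. It also does not hold once GC content and length are fitted (below). In the unpaired fit the estimate was 0.25 without total RNA replicate 1 and −0.96 without total RNA replicate 2. Either fit sets both IP libraries against 1 total RNA library, so it carries the gap between the replicates (−1.21 in total RNA).

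The low subunits were measured with wide errors. Grin3a had 19.6 and 13.6 CPM in total RNA and 21.03 and 13.1 CPM in the IP, with pairs of 0.10 and −0.056 and a blocked estimate of 0.027 ± 0.19 (−0.34 to 0.40; edgeR adjusted p = 0.953). Grin2c had 2.45 and 1.81 CPM in total RNA and 2.24 and 0.898 CPM in the IP, with pairs of −0.12 and −0.86 and −0.50 ± 0.54 (−1.55 to 0.55; edgeR adjusted p = 0.607). A change of 2 times in either gene's ratio would lie outside the interval for Grin3a but, when lower, inside that for Grin2c.

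Across the 6 subunits tested, 2 blocked estimates were above 0 and 4 below. Their median was −0.075 with the block and −0.076 without it, beside 0.011 and 0.0097 over all genes tested, and −0.11 in each pair. In the order of blocked estimates, 45.5% of genes lay below Grin1, 48.8% below Grin2a, 51.7% below Grin3a, 34.7% below Grin2b, 10.1% below Grin2d and 6.74% below Grin2c.

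**Figure D3:**
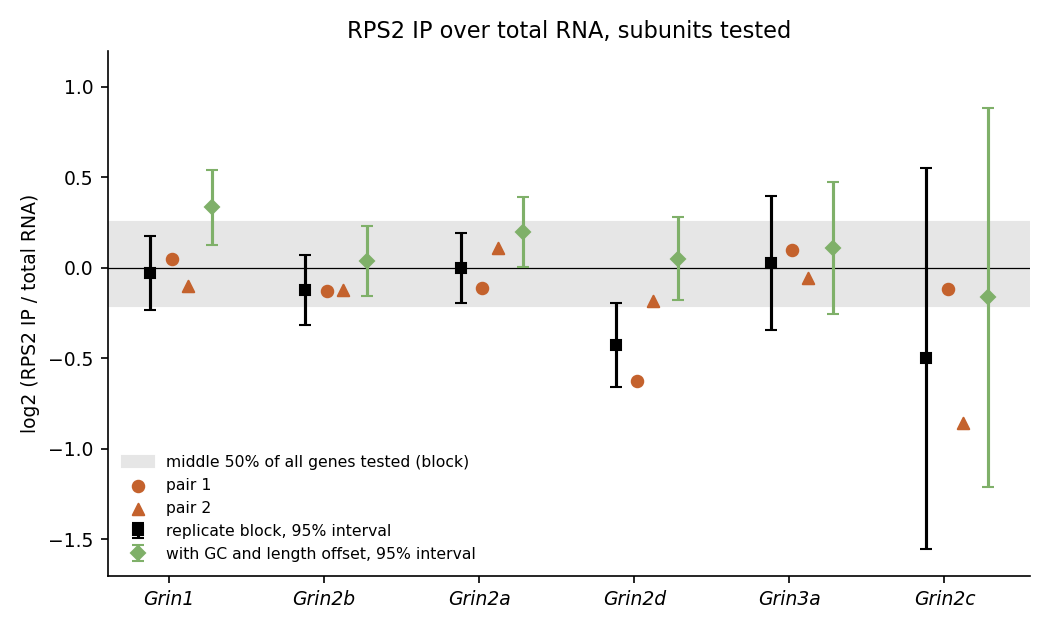
log2 of RPS2 IP over total RNA for the 6 subunits tested, with orange marks for the pairs, black squares for the blocked fit and green diamonds for the blocked fit with a GC and length offset, bars being 95% intervals and the grey band the middle 50% of all genes (−0.21 to 0.25). Grin2d lies below 0 in black at −0.43 but at 0.052 in green, and Grin1 moves from −0.027 to 0.33.

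Fold changes in the blocked fit fell with GC content (Spearman correlation −0.315 across the genes tested, a description over genes that share these libraries) and with exonic length (−0.171). Grin2d, with a GC content of 65.6%, is the most GC-rich member, and all members but Grin3b have exons summing to more than the median of 4672 bases. With an offset for GC content and length in the blocked fit, Grin2d went to 0.052 ± 0.12 (−0.18 to 0.28; edgeR adjusted p = 0.869) and lost its call. Grin1 went to 0.33 ± 0.11 (0.13 to 0.54; edgeR adjusted p = 0.0274) and was called higher, as 4.7% of all genes were in that fit (2.57% lower). Grin2a stood at 0.20, Grin3a at 0.11, Grin2b at 0.039 and Grin2c at −0.16, none of them called. The calls on Grin1 and Grin2d in the blocked fit therefore both change with this offset. Whether GC content or length acts on recovery in the IP was not tested.

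For Grin2a, Grin2d and Grin3a the replicates differed by more than IP and total RNA did in either pair. In total RNA, replicate 2 minus replicate 1 on the log2 CPM scale was −1.21 for Grin2d, −0.52 for Grin2a, −0.52 for Grin3a and −0.40 for Grin2c, but −0.064 for Grin2b and 0.13 for Grin1. The IP libraries gave −0.77 for Grin2d, −0.30 for Grin2a, −0.67 for Grin3a, −1.13 for Grin2c, −0.059 for Grin2b and −0.021 for Grin1. Of the 6 subunits tested, Grin2d thus had the widest gap in total RNA and Grin2c in the IP, while Grin1 and Grin2b moved little. Beside this stand the astrocyte markers, which fell from 2754 to 1229 CPM between the same total RNA libraries. The inhibitory markers summed to 1049 and 1072 CPM, but singly they moved apart. Gad1 rose from 422.9 to 538.2 CPM, Slc32a1 fell from 466.5 to 373.8 and Gad2 had 159.7 and 160.1. The part of these markers in the subunit values was not tested.

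**Figure D4:**
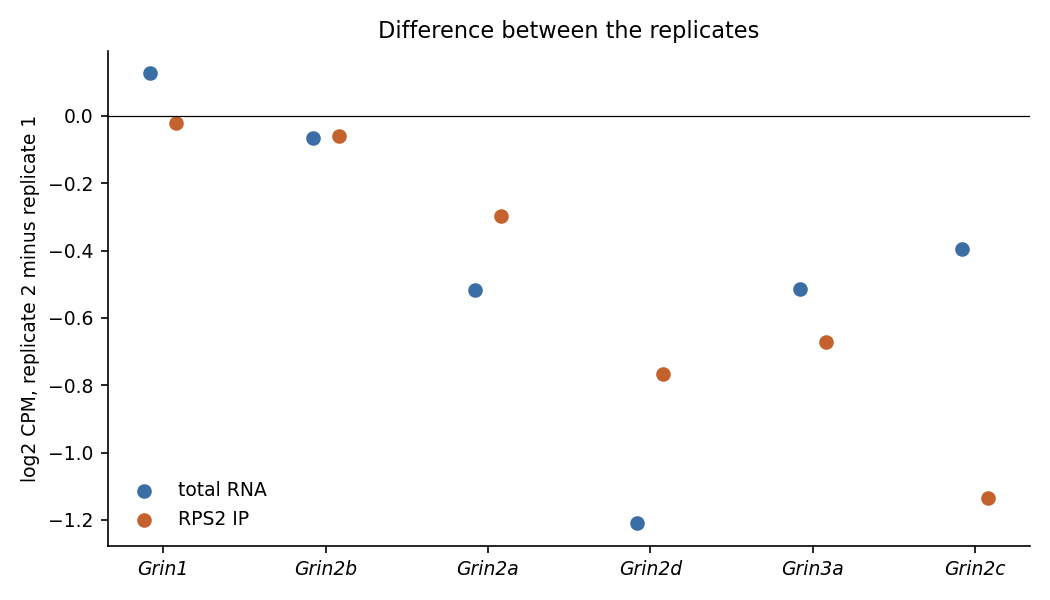
Difference in log2 CPM between replicate 2 and replicate 1 for the 6 subunits tested, in total RNA (blue) and in the RPS2 IP (orange). Grin1 and Grin2b lie near 0 in both, and Grin2d lies at −1.21 and −0.77.

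The subunits were set beside the other ionotropic glutamate receptors. Summed per kilobase, NMDA receptor mRNAs stood at 201 and 199 CPM in total RNA, AMPA receptor mRNAs (Gria1 to Gria4, which carry fast transmission) at 69.2 and 59.3, and kainate receptor mRNAs (Grik1 to Grik5) at 74.7 and 47.3. NMDA receptor subunits thus made up 58.2% and 65.1% of the 3 families in total RNA and 60.5% and 67.0% in the IP. These shares depend on the length used. Without length, the total RNA sums were 2443 and 2395 CPM for NMDA, 637.1 and 540.3 for AMPA and 427.8 and 273.5 for kainate receptors. In replicate 1 the order of AMPA and kainate receptors thus differed from that per kilobase. Without the block 0 AMPA and 0 kainate receptor genes were called by edgeR or DESeq2, with none at an unadjusted p under 0.05. With the block 0 of 4 AMPA receptor genes were called by edgeR or DESeq2, with edgeR estimates of −0.11 to 0.28 and a median of 0.14. In edgeR 1 had an unadjusted p under 0.05, as had 3214 of all 12336 genes tested. Of 5 kainate receptor genes 0 were called higher and 2 lower, beside 7.55% of all genes lower, with a median of −0.44. DESeq2 with the block called 1 of the 5, with no share over all genes given for that fit. Grik5, whose product assembles with the principal subunits, had 311 and 196 CPM in total RNA and 211 and 143 CPM in the IP (−0.51 ± 0.099; edgeR adjusted p = 1.86e-05). Grik3 had 57.9 and 35.5 against 50.4 and 21.02 (−0.45 ± 0.13; edgeR adjusted p = 0.00724). With the GC and length offset 0 of either family were called, beside 4.7% of all genes higher and 2.57% lower. Whether the families differ from the NMDA receptor subunits was not tested.

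Of 43 other genes of the receptor's pathway, 42 were tested. Dao, which degrades D-serine, was not, with 1 count in the 4 libraries. The unpaired edgeR fit called 0 of them (1 had an unadjusted p under 0.05, and DESeq2 called 0). The blocked fit called 5 higher and 8 lower, with a median log2 ratio of 0.071. In it 25 had an unadjusted p under 0.05, as had 3214 of all 12336 genes tested. When only library size was used for scaling, the blocked split was 1 higher and 6 lower, as the split over all genes moved from 818 higher and 931 lower to 283 and 878.

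The counts by role are read beside the background of the blocked fit, in which 7.55% of all genes were lower and 6.63% higher. Of 9 postsynaptic scaffold genes 4 were lower and 0 higher, with a list median of −0.22. DESeq2 with the block called 4 of them too, but no share over all genes is given for that fit. With the GC and length offset 0 were called, beside 4.7% of all genes higher and 2.57% lower. Shank1, which links the receptor complex to the actin cytoskeleton, had 1055 and 659 CPM in total RNA and 748 and 529 CPM in the IP (−0.41 ± 0.10; edgeR adjusted p = 9.87e-04). Its relatives Shank2 (−0.45, adjusted p = 1.80e-04) and Shank3 (−0.45, adjusted p = 1.89e-04) and the adaptor Dlgap1 (−0.38, adjusted p = 0.00188) were lower too. Dlg4, which encodes PSD-95, the scaffold that binds GluN2 tails, had −0.22 (adjusted p = 0.131) and was not called. Nor were its relatives Dlg1 (0.21, adjusted p = 0.187), Dlg2 (0.27, adjusted p = 0.0513) and Dlg3 (0.067, adjusted p = 0.726), or Homer1 (0.12, adjusted p = 0.532).

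Among 14 calcium-dependent effectors 3 were higher and 2 lower, with a list median of 0.11. The higher ones included Calm2 and Calm3, which encode calmodulin, a calcium sensor that binds the GluN1 tail. Calm3 had 472 and 546 CPM in total RNA and 724 and 834 CPM in the IP (0.61 ± 0.10; edgeR adjusted p = 1.10e-07) and Calm2 gave 0.32 (adjusted p = 0.0172). Reads from pseudogenes of these genes that aligned to several loci were not counted, so these levels are uncertain. The kinase Dapk1, which binds GluN2B, was among the lower ones (−0.40, adjusted p = 0.00237). Camk2a and Camk2b, the kinases that dock on GluN2B, had 0.094 and −0.082 and were not called (adjusted p = 0.628 and 0.662).

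Of 6 kinase and phosphatase genes of the receptor, 1 was higher and 1 lower, with a median of −0.076. Csnk2a1, a catalytic subunit of casein kinase 2, gave 0.48 ± 0.17 (adjusted p = 0.0376), and the tyrosine kinase Src gave −0.38 ± 0.12 (adjusted p = 0.0129). Of the 4 co-agonist genes tested 1 was higher: Slc6a9, the glycine transporter GlyT1, at 0.39 ± 0.12 (adjusted p = 0.0122). DESeq2 with the block called none of these 3 genes (0 of the kinase and phosphatase list and 0 of the co-agonist list). Of 9 trafficking and partner genes 1 was lower, a share close to the background, the adaptor Apba1 at −0.37 ± 0.099 (adjusted p = 0.00375). With the GC and length offset 4 pathway genes were called higher and 0 lower, beside 4.7% of all genes higher and 2.57% lower. Calm3 (0.63) and Slc6a9 (0.57) kept their calls and Nos1, the neuronal nitric oxide synthase, was added (0.36, adjusted p = 0.0322). Calm2 and Csnk2a1 and all 8 lower genes were no longer called. Adjusted p-values in these paragraphs are from edgeR's quasi-likelihood test with the replicate block.

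**Figure D5:**
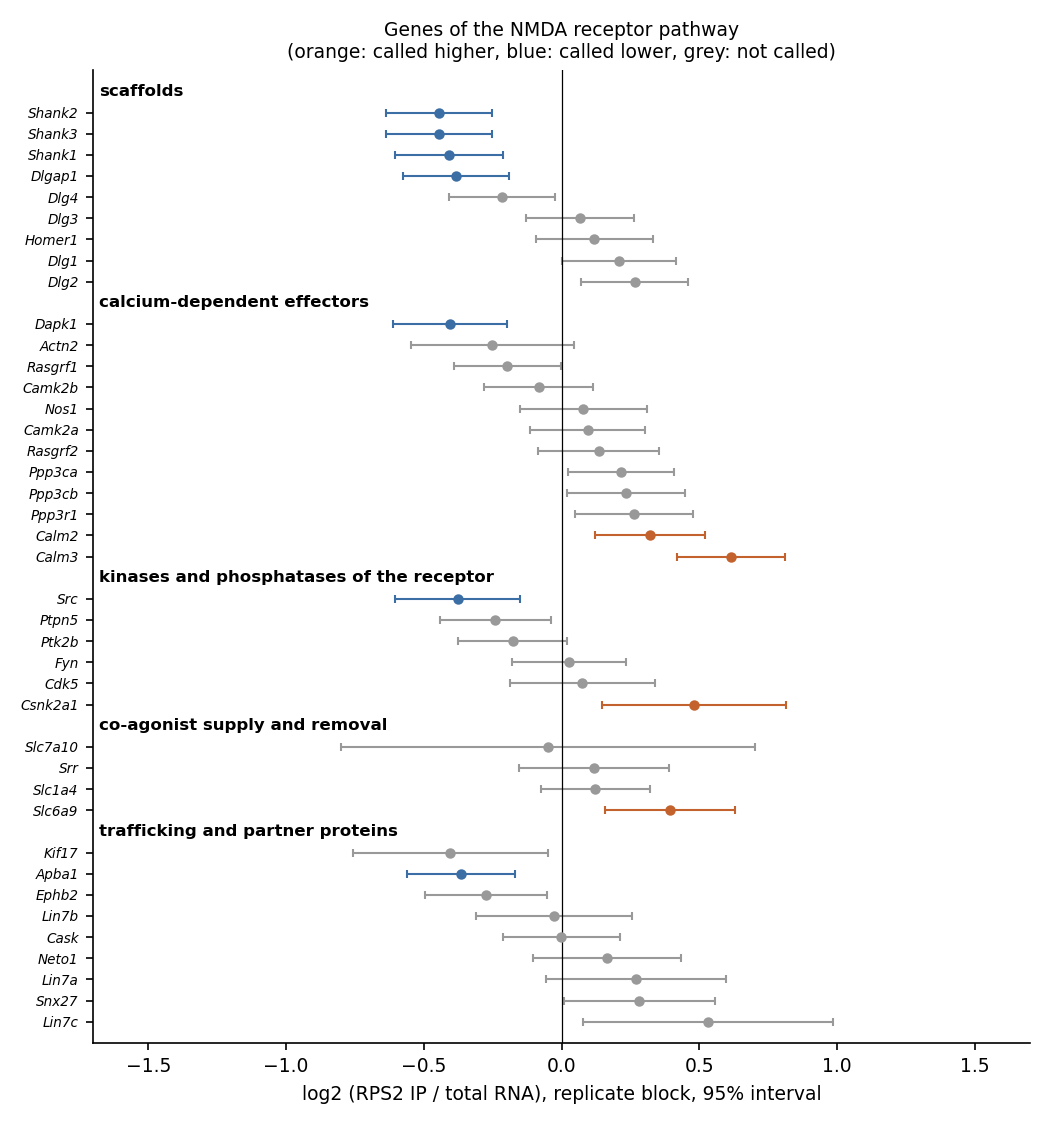
log2 of RPS2 IP over total RNA in the blocked fit for pathway genes tested, grouped by role, with 95% intervals and with orange for genes called higher, blue for lower and grey for neither. The Shank genes and Dlgap1 form the blue group near −0.4 and Calm3 is the highest orange point, at 0.61, before any correction for GC content and length.

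Astrocyte and neuron markers were also read in the same fit, since both cell types are in these cultures. In the blocked fit the astrocyte genes Aqp4 (0.49, adjusted p = 8.49e-04) and Slc1a3 (0.34, adjusted p = 0.0084) were higher in the IP, the other 4 of 6 not being called. Among neuronal markers Snap25 was higher (0.37, adjusted p = 0.00273) and Syn1 (−0.31, adjusted p = 0.016) and Nefl (−0.41, adjusted p = 7.11e-04) lower. Of all genes tested, 6.63% were higher and 7.55% lower in this fit. DESeq2 with the block called 0 astrocyte and 3 neuronal markers, for which no share over all genes is given. With the GC and length offset 3 astrocyte markers and 1 neuronal marker were called, beside 4.7% of all genes higher and 2.57% lower. The estimates of 5 of 6 astrocyte markers were above 0, with a median of 0.23, and the median of the neuronal markers was −0.13. The other lists with genes tested had medians of −0.036 (excitatory), 0.094 (inhibitory), 0.41 (microglial) and 0.17 (oligodendrocyte lineage). The part of the markers in the subunit values was not tested.

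The genes whose pattern over the 4 libraries was most like that of each main subunit were sought among 5003 genes that had 100 counts or more in each library, by the Euclidean distance between centred log2 CPM profiles. For Grin1 these were Vps13c (distance 0.0144), Pfkm (0.0210) and Atxn1l (0.0300). For Grin2a they were Zfp385b (0.0401), Mcoln1 (0.0409) and Traf3 (0.0601), and for Grin2b Gnaz (0.0182), Inpp4a (0.0313) and Kdm3b (0.0328). Among the subunits, Grin1 and Grin2b lay 0.168 apart, Grin2a and Grin2b 0.384, Grin1 and Grin2a 0.497 and Grin1 and Grin2d 1.15. By distance from Grin1 among the 5003 genes, Grin2b ranked 335, Grin2a 3037 and Grin2d 4833. From Grin2b, Grin1 ranked 381, Grin2a 2056 and Grin2d 4725. From Grin2a, Grin2b ranked 1158, Grin1 1945 and Grin2d 3395. The genes named first were picked as the nearest, so their smaller distances do not show that the subunits were unlike each other. Over 4 libraries such likeness is a description only.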

How the data were processed

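RNA counts per gene were analysed for 2 RPS2 IP and 2 total RNA libraries. Per the file headers, the authors made the raw counts with featureCounts 1.5.3 in stranded mode on mm10, leaving out reads with several loci or genes. Reads had been trimmed with cutadapt and aligned end to end with STAR. The deposited tables also list exonic length. Of 31053 identifiers 31011 had a GENCODE M21 symbol. Library totals, 4899718 to 16460545 counts, set the precision, and intervals on shares (95% Wilson) cover counting error only.

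Counts were tested in R 4.3.3 with edgeR 4.0.16 (filterByExpr, TMM, glmQLFTest, two-sided, Benjamini-Hochberg over 12336 genes, threshold 0.05). The main fit had no block. The study's methods take total RNA from the samples ahead of the pulldown but do not say which numbers belong together. Pairing by number is therefore an assumption, on which all blocked results rest. Deviations from group means correlated at 0.733 between same-numbered libraries, and a fit with the replicate number as a block was run beside it. The biological coefficient of variation was 29.7% without and 7.93% with the block, which has 1 residual degree of freedom and an infinite prior, so every gene shares the trended dispersion. Log2 CPM in single libraries used a prior count of 2. Alternatives were DESeq2 1.42.0, limma-voom (limma 3.58.1), other scalings and filters, thinning to the smallest library, leaving out libraries, and an offset from splines (5 degrees of freedom) in GC content and length. Scripts were tested on simulated data.

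All members, all called genes of the pathway and receptor lists, and the 3 genes most like each main subunit were named by rule. Marker genes and single pathway genes that were not called were named after their values were seen. A few single genes, left out of the plots too, and 1 sequence are not reported here. The members and lists were chosen with earlier results of these data known.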

Additional observations from a re-analysis of the deposited data

How the results depend on the processing

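Without the replicate block, 0 subunits and 0 pathway genes were called under each other scaling, filter, tool, thinning and left-out library tried. With the block, 1 subunit (Grin2d) was called lower, also with library size only (−0.50), limma-voom (−0.45), no low-count filter (−0.40), at least 10 counts in every library (−0.42) and thinning (−0.41), but 0 with DESeq2. With the GC and length offset 1 subunit (Grin1) was called higher. Pathway genes called higher and lower with the block were 5 and 8, as with limma-voom and with thinning. They were 1 and 6 with library size only, 2 and 7 with DESeq2, 5 and 7 with no low-count filter, 6 and 8 at the minimum of 10 counts, and 4 and 0 with the offset. The median log2 fold change of the subunits tested was −0.17 with library size only, −0.094 with median-ratio size factors and with DESeq2, −0.053 with no filter, −0.066 at the minimum of 10 counts and −0.034 after thinning. With the block and the same changes it was −0.16 with library size only, −0.093 with DESeq2, −0.052 with no filter, −0.065 with at least 10 counts, −0.029 after thinning and 0.082 with the offset. Leaving out each library gave −0.26 to 0.081. Thinned fits lack Grin2c, which then failed the filter. The cause of these shifts was not tested.

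Single estimates changed sign mostly near 0. Grin2a turned to 0.00085 with the block, 0.012 with no filter, 0.024 when the block was joined to it, 0.011 for the block and a minimum of 10 counts, and 0.20 with the offset. Grin3a turned to −0.053 with library size only, −0.052 with the block and library size only, −0.00082 after thinning and −0.012 after thinning with the block. The offset turned Grin1 to 0.33, Grin2b to 0.039 and Grin2d to 0.052. Leaving out each library in turn gave −0.091 to 0.035 for Grin1, −0.25 to 0.27 for Grin2a, −1.22 to 0.078 for Grin2c, −0.96 to 0.25 for Grin2d and −0.34 to 0.34 for Grin3a. The sign turned without total RNA replicate 1 (Grin2a, Grin2d), total RNA replicate 2 (Grin1, Grin3a), IP replicate 1 (Grin3a, −0.34) or IP replicate 2 (Grin2a, 0.12, and Grin2c). These unpaired fits leave 1 library in a group, so they also carry the gap between replicates.

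The log2 ratio of Grin2b to Grin2a, IP minus total RNA, ran from −0.35 to 0.10 when a library was left out. Shares in total RNA with raw counts were 59.3% for Grin1, 27.5% for Grin2b, 9.64% for Grin2a, 2.78% for Grin2d, 0.0879% for Grin2c and 0.0376% for Grin3b. With the longest transcript they were 85.0%, 7.02%, 4.06%, 3.17% and, for Grin2c, 0.111%. Per kilobase Grin2d stood at 5.06%. Depth limits Grin2c and Grin3b, with at most 31 counts in a library.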

Other observations

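Genes on the opposite strand share exonic bases with some subunit genes, and the counting was stranded. Grin1os shares 1307 bases with Grin1 and had 0 counts in all 4 libraries. Gm45441, an antisense gene, shares 643 bases with Grin2d and had 36 and 25 counts in the IP libraries and, in total RNA, 7 and 23, against 843, 398, 423 and 247 for Grin2d in the same order. Tmem259 shares 1059 bases with Grin3b and had 1152 and 751 counts in the IP libraries and, in total RNA, 429 and 407, far above the 3 to 15 counts of Grin3b. No gene on the same strand shared exonic bases with a member. Reads assigned to the wrong strand, were there any, would weigh most on Grin3b, and this was not tested.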
